A study of Rattus norvegicus with 24 samples.

Results

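The enzymes described here conjugate or neutralise reactive chemicals in the lung: the soluble glutathione transferases (Gst), UDP-glucuronosyltransferases (Ugt), sulfotransferases (Sult), aldehyde dehydrogenases (Aldh), aldo-keto reductases (Akr) and epoxide hydrolases (Ephx). Members were taken by gene symbol alone, as every row whose symbol starts with one of these family names followed by a number, with the glutathione transferases limited to the a, m, p, t, z, k and o classes. Gsta3 and Aldh3a1 were left out. The rule gave 92 of 30667 genes: 22 Gst, 20 Aldh, 17 Sult, 17 Akr, 12 Ugt and 4 Ephx genes.

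The series is a rat lung cancer model made with smoky coal, whose smoke carries many polycyclic aromatic hydrocarbons. Messenger RNA of 24 lung tissue samples was sequenced. Sample titles combine one of the letters A, B, C and G with a number (1 to 6), so there were 6 samples per letter and 4 per number, and a sample is called here by both, as in A2. All 24 samples carry the same smoky coal protocol label. The labels used here do not give a dose, a time, a strain, an age, a control letter or the meaning of the numbers, so directions below are those of letters and numbers only. Nothing in them says that samples of a letter came from separate animals, and p-values then measure only the spread between these samples.

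Combustion products such as polycyclic aromatic hydrocarbons are first oxidised by cytochrome P450 enzymes to epoxides, phenols and quinones. Epoxide hydrolases open the epoxides, and glutathione, glucuronic acid or sulfate is then joined to the product, which makes it soluble enough to be pumped out of the cell. Aldo-keto reductases and aldehyde dehydrogenases remove the aldehydes and ketones that smoke and lipid peroxidation leave behind. In the lung many of these enzymes are abundant in club cells of the airway. The aryl hydrocarbon receptor (AhR) and NRF2, which switches on genes against oxidative stress, are known to induce several of them.

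Values are normalized read counts per gene as deposited, and their sum per sample was between 61717516 and 66007148. The depth before normalization is unknown. The members together took 0.248% of the summed values in B2, the lowest sample, and 0.310% in G5, the highest. Among the members, 70 averaged at least 10 across all 24 samples and the means of the other 22 lay between 1.04 and 9.67. All 92 passed the filter on low values, a mean of at least 0.5, but no gene in the table totals less than 24.8 over the samples, so a gene near 0 in most samples had to be high somewhere. Exact zeros are written as "listed at 0", because 10 samples hold no exact 0 and carry small positive values in place of them. The submitters' processing notes name the mouse build GRCm38, and the symbols are mouse symbols, so reads of rat genes that differ more from mouse, or that have several near-identical copies, may have been counted less or split. How far this moved the levels was not tested. Markers of lung were present, with 8 of 8 alveolar type 2, 6 of 6 alveolar type 1 and 6 of 6 club cell genes at a mean of at least 10.

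Across samples the more abundant members varied moderately. Of the 70 members, 68 had every value at 1 or above, and their highest sample exceeded the lowest by a median of 2.07-fold. The range was narrowest for Akr1a1, the aldehyde reductase with the highest mean value of the members, whose values went from 34000.3 to 43174 (1.27-fold). It was widest for Aldh1l2, a mitochondrial enzyme of folate metabolism, at 47.0-fold.

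Promoters of 4 members are shown because the results below turn on these genes: Ugt1a8 and Akr1b8 had the smallest letter p-values among the more abundant members of their families, and Gstp1 and Aldh1a1 are abundant members whose levels followed the sample number. Gstp1 and Aldh1a1 were picked for display after their values were seen. Each sequence is the 250 bases before the RefSeq transcription start of the rat gene, 5′ to 3′, in build GRCr8: Ugt1a8 at chr9:96174649-96174898 on the plus strand, Akr1b8 at chr4:63964171-63964420 on the plus strand, Gstp1 at chr1:210769706-210769955 on the minus strand and Aldh1a1 at chr1:227537370-227537619 on the plus strand. Capitals mark GCGTG, the core of the AhR response element, and TGACNNNGC, the core of the antioxidant response element that NRF2 binds, each on either strand, and no base was shared by both motifs.
Ugt1a8: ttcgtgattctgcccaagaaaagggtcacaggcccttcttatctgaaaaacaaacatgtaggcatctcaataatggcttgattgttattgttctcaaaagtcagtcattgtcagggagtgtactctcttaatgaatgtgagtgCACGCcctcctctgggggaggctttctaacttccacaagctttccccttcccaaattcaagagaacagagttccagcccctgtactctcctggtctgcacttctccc
Akr1b8: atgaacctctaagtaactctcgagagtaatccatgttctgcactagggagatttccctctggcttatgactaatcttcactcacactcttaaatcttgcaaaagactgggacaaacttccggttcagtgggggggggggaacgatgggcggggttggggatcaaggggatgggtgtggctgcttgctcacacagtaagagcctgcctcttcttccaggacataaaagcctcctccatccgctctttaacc
Gstp1: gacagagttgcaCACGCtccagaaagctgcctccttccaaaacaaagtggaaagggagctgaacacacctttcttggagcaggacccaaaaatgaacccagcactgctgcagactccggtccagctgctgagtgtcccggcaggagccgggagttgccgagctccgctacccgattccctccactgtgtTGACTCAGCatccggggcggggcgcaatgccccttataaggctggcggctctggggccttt
Aldh1a1: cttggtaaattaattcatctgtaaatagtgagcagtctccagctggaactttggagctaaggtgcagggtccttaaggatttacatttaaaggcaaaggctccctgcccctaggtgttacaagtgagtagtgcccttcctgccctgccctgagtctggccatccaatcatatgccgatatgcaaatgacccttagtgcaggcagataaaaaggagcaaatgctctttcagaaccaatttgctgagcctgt
The Ugt1a8 stretch held 1 GCGTG, read on the reverse strand. The Gstp1 stretch held 1 GCGTG, also on the reverse strand, and 1 TGACNNNGC, while neither motif was found in those of Akr1b8 and Aldh1a1. RefSeq gave a promoter for 60 of the 92 members by symbol. The symbols of the table are mouse symbols, so the rat gene of equal symbol need not be the one counted in a row. In windows of 300 bases, which add the first 50 bases after the start, GCGTG was in 18 of these 60 (30.0%) and in 29.7% of all 33469 promoters. TGACNNNGC was in 10 of 60 (16.7%) and in 12.1% of all. A match says only that these letters are in the window.

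The first question was whether the enzymes differed between the letters. None of the 92 members passed an adjusted p of 0.05 in any letter comparison. In the F test for any difference among the 4 letters (limma on log2 of the value plus 1, Benjamini-Hochberg adjustment over all genes), 0 members were called, and 0.00652% of all genes were. At an unadjusted p under 0.05, 4 of 92 members (4.35%) and 3.91% of all genes passed, a share near the background. These 4 were Ugt1a8, Akr1b8, Akr1b10 and the pseudogene Sult1c2-ps2.

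Pairs of letters gave the same count of 0, in fits that leave the number out of the model. The share of all genes called was 0.00% in B against A, 0.00% in C against A, 0.00652% in G against A, 0.00% in C against B, 0.00326% in G against B and 0.00652% in G against C. At an unadjusted p under 0.05, 6 members passed in G against A, where 8.15% of all genes did. The other counts were 2 members in B against A (3.58% of all genes), 2 in C against A (2.98%), 1 in C against B (1.82%), 4 in G against B (3.67%) and 4 in G against C (4.03%). The median log2 difference of the members was -0.04 in G against A, beside -0.01 over all genes, -0.02 in G against B, beside 0.00, and -0.01 in G against C, beside 0.00.

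Ugt1a8 encodes an enzyme that joins glucuronic acid to phenols and had the smallest letter p-value among the members. Its lowest, median and highest normalized counts were 63.5, 80.5 and 101 in A and 55.8, 81.6 and 103 in B. They were 72.6, 89.2 and 109 in C, beside 35.3, 60.1 and 80.6 in G. The G samples lay low but overlapped each other letter. Means were 80.8 ± 13.4, 83.3 ± 16.7, 89.5 ± 17.1 and 59.4 ± 14.7 (SD, n = 6 each). On the log2(value + 1) scale, which understates changes of low genes, G minus A was -0.46 ± 0.18 (SE; limma adjusted p = 0.523), G minus B -0.49 and G minus C -0.60 (limma adjusted p = 0.9998). Compared within a number, Ugt1a8 was lower in G than in A and in B in 5 of 6 numbers each, and than in C in 6 of 6. Equal numbers were not taken as pairs in the comparisons with G, so such counts, here and below, are descriptive only.

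Its neighbours in the Ugt1a cluster are made from a shared gene with alternative first exons, so reads from the common exons cannot be told apart between Ugt1a rows, and these rows are not independent. Ugt1a6b, the most abundant Ugt row, averaged 241 ± 26.8, 270.0 ± 41.6, 261 ± 25.3 and 219 ± 38.6 for the letters A, B, C and G, with G minus B at -0.30 and G minus C at -0.26. Its G values ran from 161 to 255 and overlapped all other letters. Ugt1a7c averaged 161 ± 54.3, 163 ± 30.1, 163 ± 32.1 and 128 ± 18.2 in the same order.

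Akr1b8 and Akr1b10 are aldo-keto reductases that reduce lipid-derived and aromatic aldehydes. Akr1b8 had lowest, median and highest values of 1705, 1884 and 2077 in A and 1701, 1890.2 and 2044 in B. They were 1639, 1903 and 2109 in C, beside 1452, 1650.4 and 1793 in G. Again G was the low letter, with overlap. The log2 difference of G was -0.20 from A, -0.18 from B and -0.21 from C (SE 0.07 each), and the limma adjusted p from A was 0.467. Within a number, G had less Akr1b8 than A in 5 of 6 numbers, than B in 6 and than C in 5. Akr1b10 averaged 205 ± 40.3, 218 ± 16.7, 189.6 ± 31.8 and 166 ± 27.0 for A, B, C and G.

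Aldh16a1 and Gstt2 were also among the smaller letter p-values. Aldh16a1 averaged 3667 ± 373, 3482 ± 194, 3513 ± 263 and 3292 ± 163 for A, B, C and G, and G minus A was -0.15 (limma adjusted p = 0.544). It was lower in G than in A, B and C in 6 of 6 numbers each, again not taken as pairs. Gstt2, a theta-class glutathione transferase, was the one member with an unadjusted p under 0.05 that was higher in G than in A, at 2203 ± 119 beside 1919 ± 320 (log2 difference 0.22, limma adjusted p = 0.583).

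Gstm6, a mu-class glutathione transferase, was among the smaller letter p-values of its family. It averaged 63.7 ± 15.98, 76.9 ± 21.7, 76.3 ± 14.1 and 66.7 ± 11.9 for A, B, C and G. Sult4a1, a sulfotransferase best known from brain, averaged 21.7 ± 7.37, 15.04 ± 5.78, 18.8 ± 8.28 and 21.1 ± 8.26. Sult6b1 stayed between 5.06 and 22.7 in all samples. Aldh8a1 averaged 18.5 ± 7.20, 20.8 ± 10.7, 12.9 ± 10.6 and 14.4 ± 5.58. Of the epoxide hydrolases, Ephx4 averaged 93.1 ± 23.8, 121 ± 60.7, 111 ± 38.5 and 135 ± 40.6, and Ephx2 averaged 1094 ± 157, 1166 ± 207, 1099.7 ± 148 and 1059.7 ± 63.4. The 4 letters overlapped for each of these 6 genes.

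**Figure D1:**
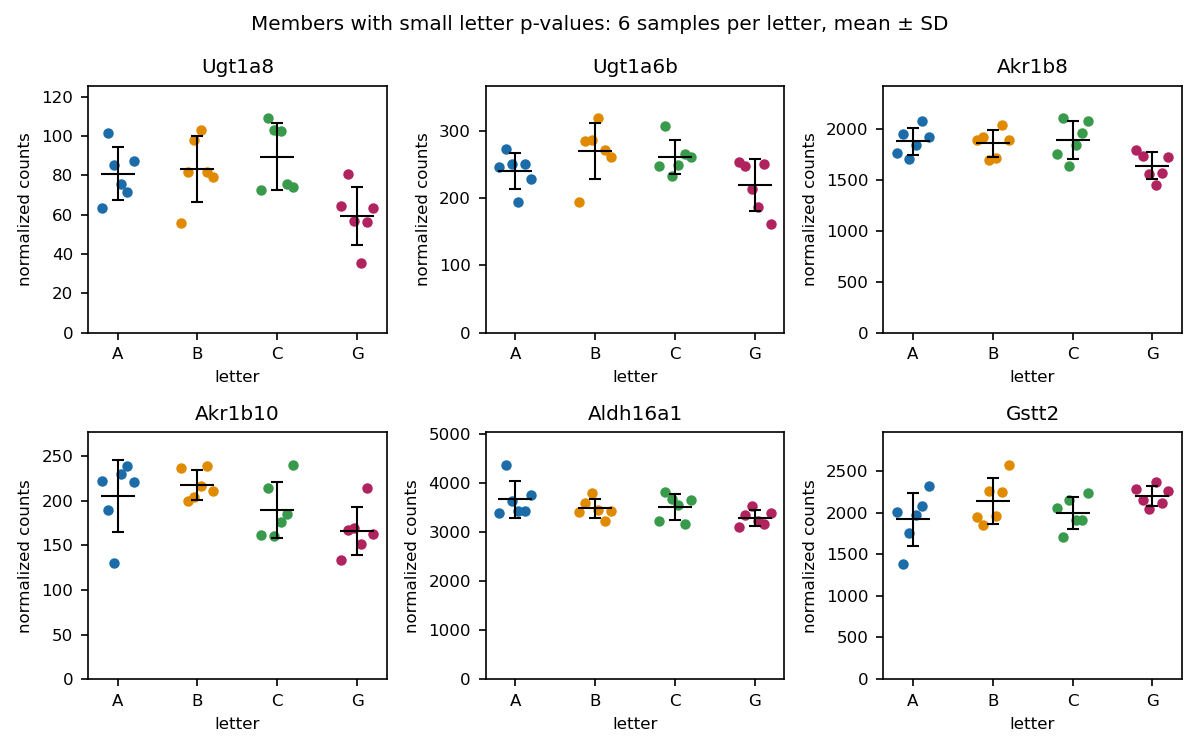
Normalized read counts (y axis, from 0) of 6 members by letter (x axis). Points are the 6 samples of a letter, and bars the mean ± SD. G averages lowest in Ugt1a8 (59.4), Ugt1a6b, Akr1b8 and Akr1b10, and highest in Gstt2, with overlap between letters in each panel.

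Beside these values stands Ahrr, the repressor of AhR, the one gene called in the letter comparisons among 78 listed pathway genes that are not members, which include Gsta3 and Aldh3a1. It averaged 77.0 in G and 395 in A, a log2 difference of -2.31 (limma adjusted p = 0.000165), and its G values, 45.4 to 97.8, lay below every sample of the other letters. Among the AhR targets it was the 1 of 7 called in G against each other letter. The other 7 lists, NRF2 targets, glutathione synthesis, microsomal glutathione transferases, cosubstrate supply, other conjugating enzymes, other carbonyl oxidoreductases and export pumps, had 0 called in the letter comparisons. At an unadjusted limma p under 0.05, 17 of the 78 passed in G against A (all genes: 8.15%), with a median log2 difference of -0.099. It was 6 in G against B (3.67%), 9 in G against C (4.03%) and 3 in B against A (3.58%). In C against A (2.98%) and C against B (1.82%) it was 0. The summed red blood cell markers were also low in G, at 126084 to 313644, beside 156634 to 1083302 in A, and their part in the values above was not tested.

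The second question was whether the enzymes followed the sample number. They did so in 46 of 92 members, beside 31.5% of all genes (F test over the 6 numbers with the letter in the model, limma, adjusted over all genes). Among genes with a mean of at least 10 the shares were 58.6% of 70 members and 42.6% of 21922 genes. A member had a median of 50.6% of its variance between numbers and 8.22% between letters, and for all genes the medians were 37.1% and 9.45%. The share between 6 numbers cannot be set directly against that between 4 letters, because more groups take up more variance by chance. By family, the call was made for 13 of 22 Gst, 14 of 20 Aldh, 9 of 17 Sult, 6 of 17 Akr, 3 of 4 Ephx and 1 of 12 Ugt genes, and differences between families were not tested. The Sult calls include Sult2a1, Sult2a3, Sult2a4, Sult2a5 and Sult2a6, whose rows are not independent, as given below. The Gst calls include Gstp1 and Gstp2, which cannot be told apart as genes. Leaving out each sample in turn, 35 of the 46 calls were made in all 24 fits.

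**Figure D2:**
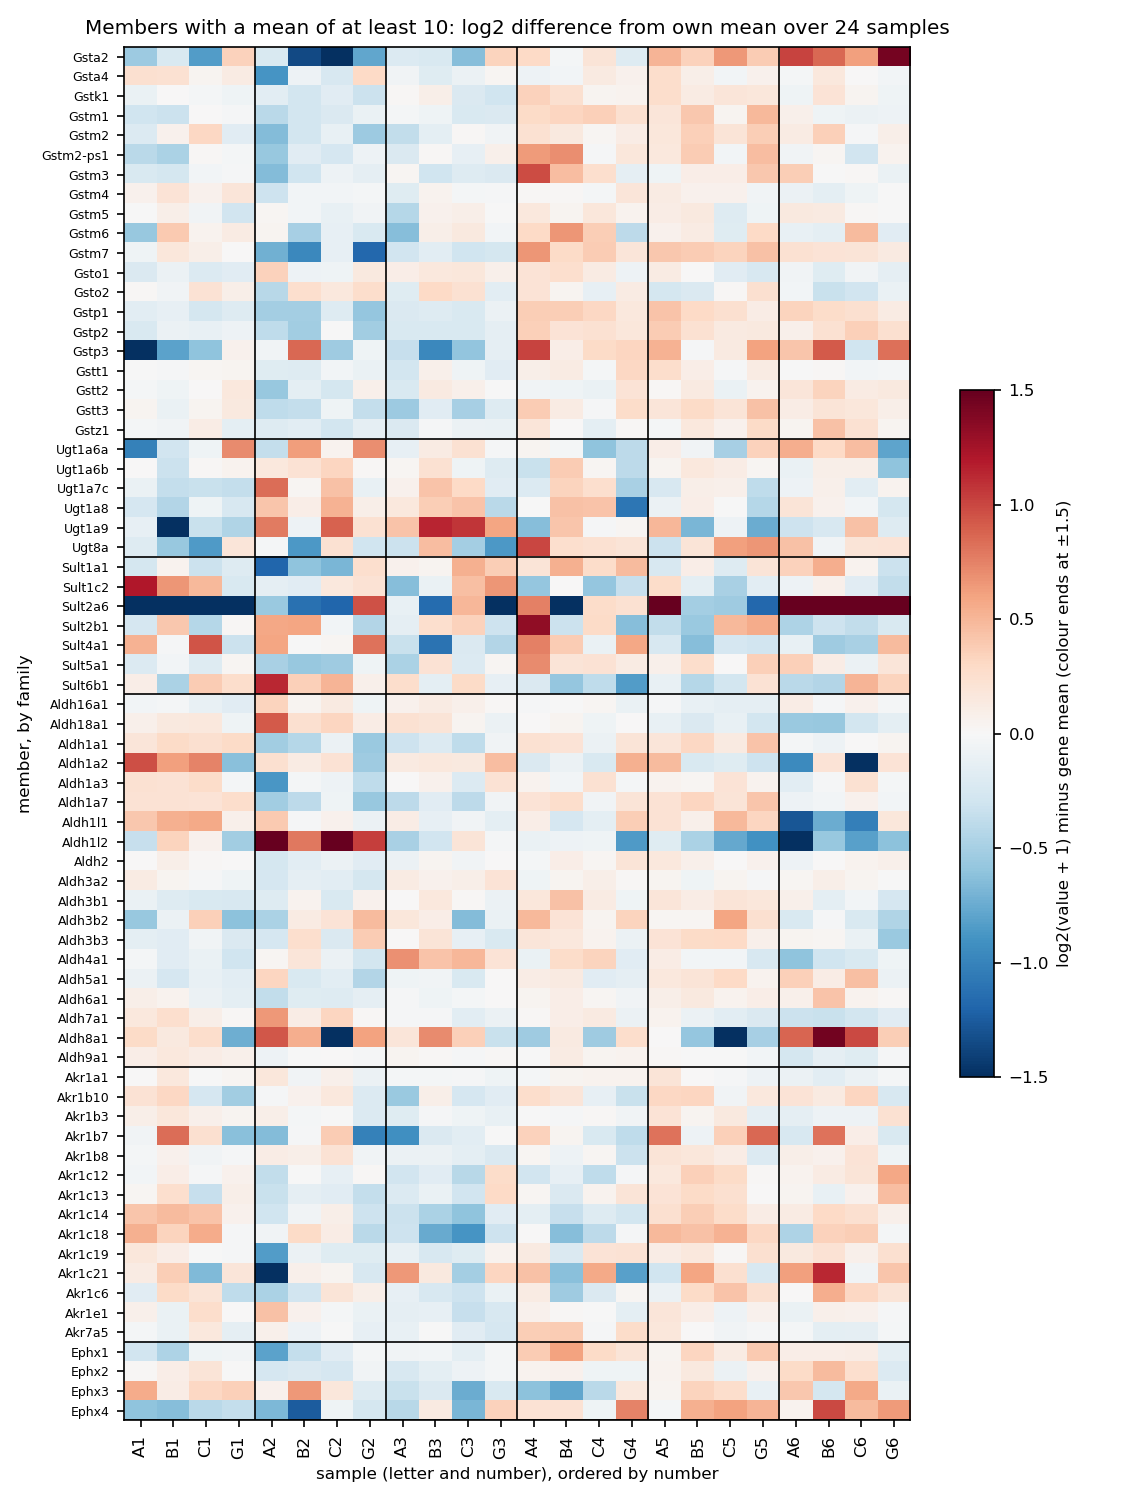
Members with a mean of at least 10 (rows, by family) in the 24 samples (columns, ordered by number, then letter). Colour is log2(value + 1) minus the gene's own mean, ending at ±1.5. Samples numbered 2 are mostly blue in the Gst block, and Sult2a6 is red in all 4 samples numbered 6.

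Each number was then set against the mean of the other 5. Samples numbered 2 gave the most calls, with 23 members lower (all genes: 10.3%) and 4 higher (11.5%), and a median log2 difference of -0.17 beside 0.01 over all genes. Samples numbered 6 gave 11 higher (all genes: 4.11%) and 7 lower (4.02%). Those numbered 1 gave 4 higher (5.62%) and 7 lower (6.25%), number 3 gave 2 higher (2.89%) and 7 lower (2.09%), number 4 gave 7 higher (2.72%) and 1 lower (2.02%), and number 5 gave 7 higher (0.880%) and 0 lower (1.09%). The median differences of the members were -0.05 for number 1, -0.12 for 3, 0.06 for 4, 0.11 for 5 and 0.09 for 6, each beside an all-gene median between -0.02 and 0.01. Of the 11 members higher in number 6, 5 were Sult2a rows, near-identical copies that are not independent, as given below. Sult2a3 and Sult2a5 reach the lowest gene total of the table only through number 6. The share of members higher in number 6 is therefore not one of separate genes.

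Several of these counts fell when 1 sample of the number was left out, which also leaves that number with fewer samples. With both directions together, number 2 had 27 calls (all genes: 21.8%). For number 1, 11 calls (all genes: 11.9%) became 4 without A1, 4 without B1 and 5 without C1. For number 3, 9 (4.98%) became 4 without A3, 5 without B3 and 4 without C3, and for number 4, 8 (4.74%) became 2 without A4 and 1 without B4. For number 5, 7 (1.97%) became 1 without A5, 0 without B5, 0 without C5 and 1 without G5. For number 6, 18 (8.13%) became 10 without A6, 9 without B6 and 11 without C6. For number 1 the split also depended on scaling, with 4 higher and 7 lower as deposited, 7 and 2 after quantile normalization, and 5 and 5 after scaling to the 75th percentile. For number 3 it was 2 higher and 7 lower, 1 and 8 after quantile normalization, and 1 and 9 after scaling to the 75th percentile.

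**Figure D3:**
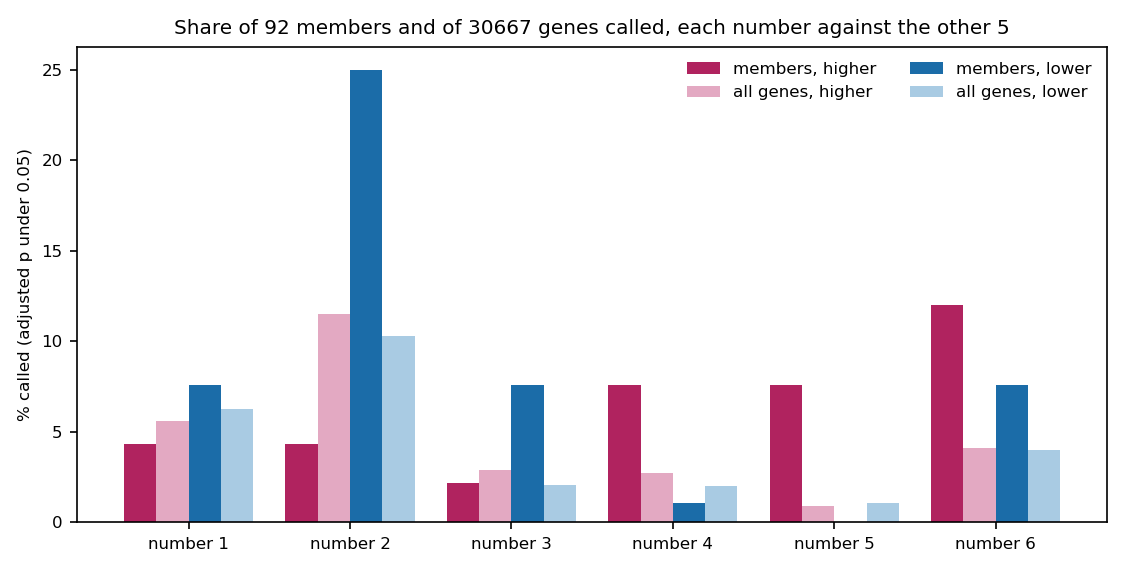
Share of the 92 members and of all 30667 genes called higher or lower (y axis, %, adjusted p under 0.05) in each number against the other 5 (x axis). The tallest bar is the members lower in number 2, 25.0% beside 10.3% of all genes. The members higher in number 6 include 5 Sult2a rows that are not independent.

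The glutathione transferases join glutathione to electrophiles such as epoxides of polycyclic aromatic hydrocarbons. In number 2, 10 of 22 were lower (all genes: 10.3%) and 0 higher (11.5%), with a family median of -0.28. In number 4, 5 of 22 were higher (2.72%) and 0 lower (2.02%), with a median of 0.18. In number 5, 5 were higher (0.880%) and 0 lower (1.09%), with a median of 0.19. In number 1, 3 were lower (6.25%), in number 3, 2 were lower (2.09%), and in number 6, 4 were higher (4.11%). The counts of numbers 2, 4 and 6 each hold both Gstp1 and Gstp2, which cannot be told apart as genes, as given below. Of the 22 rows, 20 average at least 10. With both directions together, 29.6% of all genes in that class were called in number 2, 6.42% in number 4 and 2.71% in number 5.

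Gstp1, the pi-class transferase and the most abundant of the family's rows, followed the number most closely, with 90.1% of its variance between numbers (limma adjusted p = 1.25e-06). Its values in A, B, C and G were 4882, 5033, 4538 and 4760 normalized counts in number 1, 3834, 3821, 4768 and 3659 in number 2, and 4713, 4792, 4662 and 5118 in number 3. In number 4 they were 7068, 7072, 6757 and 6107, in number 5 7332, 6728, 6474 and 5876, and in number 6 6886, 6591, 6466 and 5960. All 12 samples numbered 1 to 3 lay below all 12 numbered 4 to 6, a split chosen after the values were seen and not tested. Summed red blood cell markers were 126084 to 352871 in numbers 1 to 3. In numbers 4 to 6 they were 435295 to 1083302 in the samples of A, B and C, but 148511 to 313644 in those of G, where Gstp1 was 5876 to 6107. Their part in the Gstp1 values was not tested. The log2 difference from the other numbers was -0.54 ± 0.06 (SE) in number 2 and 0.36 ± 0.06 in number 4. The number 2 call was made in all 24 fits without 1 sample, with an adjusted p of at most 3.72e-05. The number 4 call was lost without both A4 and B4 (limma adjusted p = 0.183). Rat RefSeq lists a single Gstp1 gene with Gstp2 as a synonym, so the Gstp1 and Gstp2 rows of the table cannot be told apart as genes.

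Gstm7, a mu-class transferase, had the largest decrease of the rule-named transferases in number 2. Its values there were 237 for A2, 201 for B2, 361 for C2 and 173 for G2, and the other 20 samples lay between 319 and 624. C2 was inside that range and the other 3 were below it. The log2 difference was -0.90 ± 0.11 (limma adjusted p = 1.11e-05; in all 24 fits without 1 sample at most 0.000145). Gstt2 was 1385, 1851, 1710 and 2152 in number 2, with a log2 difference of -0.27 that was lost without A2 (limma adjusted p = 0.109). Gsta2, an alpha-class row at a mean of at least 10, was chosen after its values were seen. It averaged lowest in number 2, at 9.84, 3.97, 2.82 and 6.38, and highest in number 6, at 24.6, 22.0, 18.3 and 33.2. Samples overlapped, with A2 above A1 (7.66) and C5 (18.9) above C6.

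**Figure D4:**
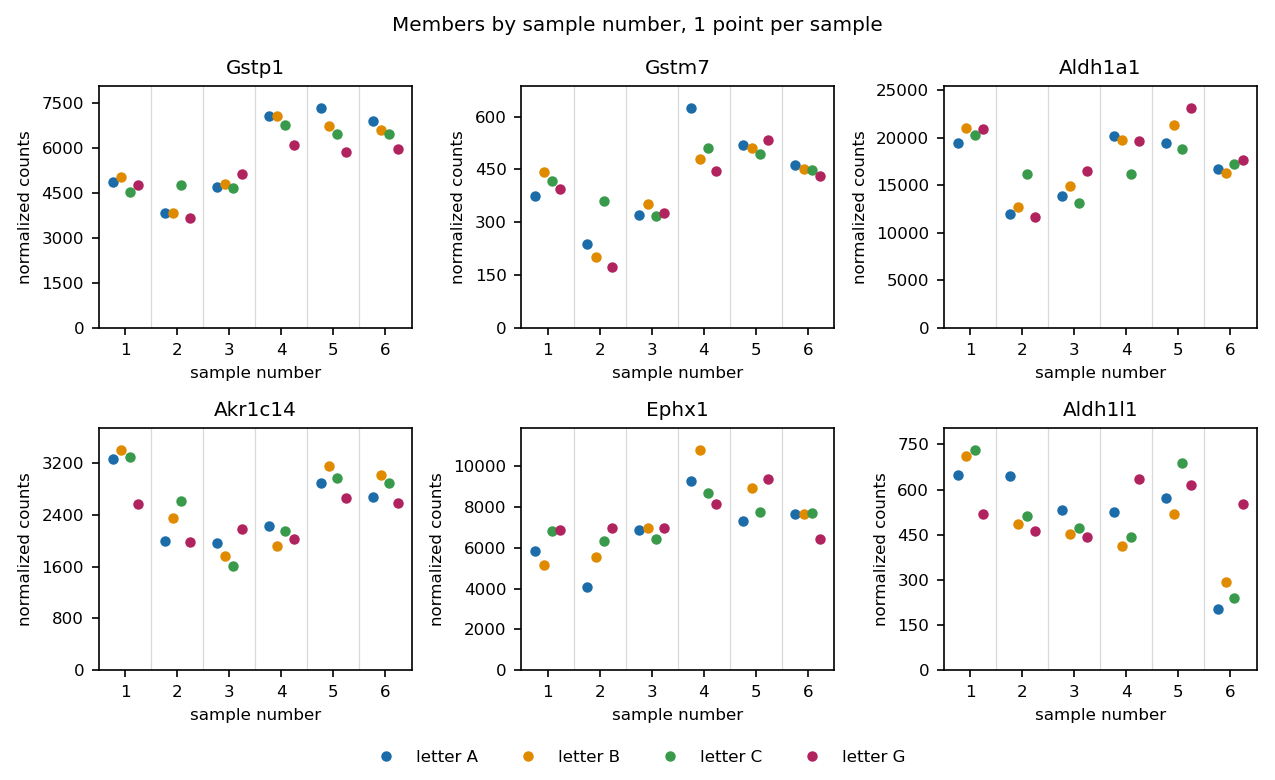
Normalized read counts (y axes, from 0) of 6 members by sample number (x axes), 1 point per sample, coloured by letter. Gstp1 lies at 5118 or below in numbers 1 to 3 and at 5876 or above in numbers 4 to 6, and Aldh1l1 is low in 3 of the 4 samples numbered 6.

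The sulfotransferases add sulfate to phenols, steroids and bile acids. Sult1a1, the phenol sulfotransferase with the highest mean value in the family, was 3269, 4905, 4666 and 8901 in number 2, and between 5986 and 10946 in the other 20 samples. A2, B2 and C2 were below all other samples and G2 was not. The log2 difference of number 2 was -0.67 ± 0.16 (limma adjusted p = 0.00360) and was lost without A2 (0.0593). Sult5a1 was 184, 173, 177 and 247 in number 2, with a log2 difference of -0.50 ± 0.11 (limma adjusted p = 0.00333). Over all numbers, Sult4a1 was called at the threshold (limma adjusted p = 0.0488) in 6 of the 24 fits without 1 sample.

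The Sult2a rows are hydroxysteroid sulfotransferases best known from liver, and 5 of the 6 were low in most samples and called higher in number 6. Sult2a6 was 23.5 in A6, 115 in B6, 47.5 in C6 and 36.3 in G6, at most 0.0132 in number 1, and between 0 and 21.1 elsewhere, with A5 at 21.1 the next highest sample. The 4 samples numbered 6 were above all others. Sult2a1 was 12.3, 68.1, 20.4 and 18.7 in number 6, and A5 at 13.0 lay above A6. Sult2a3 was 9.14, 13.0, 3.88 and 3.94, Sult2a4 was 11.2, 37.1, 13.6 and 8.82, and Sult2a5 was 6.12, 24.03, 5.83 and 4.91. On the log2(value + 1) scale number 6 exceeded the others by 4.16 ± 0.58 in Sult2a6, 3.78 in Sult2a1, 3.20 in Sult2a4, 2.86 in Sult2a5 and 2.68 in Sult2a3. Each of these 5 calls was made in all 24 fits without 1 sample, with adjusted p-values of at most 0.0214. Without their number 6 values, Sult2a3 and Sult2a5 would total less than 24.8, the lowest total of a gene in the table. Their number 6 calls, and the fits that kept them, are therefore no independent support. Sult2a6 reached a mean of at least 10, which the naming rule asks for, only through number 6, where it averaged 55.6 beside 3.04 over the other 20 samples, and the other 4 rows were chosen after their values were seen. They are near-identical copies whose reads could be split, so the 5 rows are not independent. The sixth row, Sult2a8, was 8.19, 8.02, 4.80 and 7.79 in number 6 and was not called there (limma adjusted p = 0.331). Its highest sample was G2, at 13.5.

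Beside them stand the hepatocyte markers, of which 4 of 8 had a mean of at least 10. Their sum was 127 to 254 in number 6 and 44.1 to 398 in the other samples, so the groups overlapped. Alb, albumin, was 50.3 in A6, 138 in B6, 50.02 in C6 and 108 in G6, but 262 in A4 and 110 in C2, where Sult2a6 was 6.29 and 0.892. It was the 1 of 8 called higher in number 6 (all genes: 4.11%), with a log2 difference of 2.39 (limma adjusted p = 0.0426). The call was made in 10 of 24 fits without 1 sample and not with a pseudocount of 0.1 (0.0770). Akr1d1, the steroid reductase of bile acid synthesis, chosen after its values were seen, was 6.17, 46.1, 14.5 and 13.7 in number 6 (log2 difference 2.12, limma adjusted p = 0.0334), and the call was lost without A6, B6 or C6 (at most 0.206) and with a pseudocount of 0.1 or without A4 and B4 (at most 0.0994). The part of other tissue's RNA in these values was not tested.

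**Figure D5:**
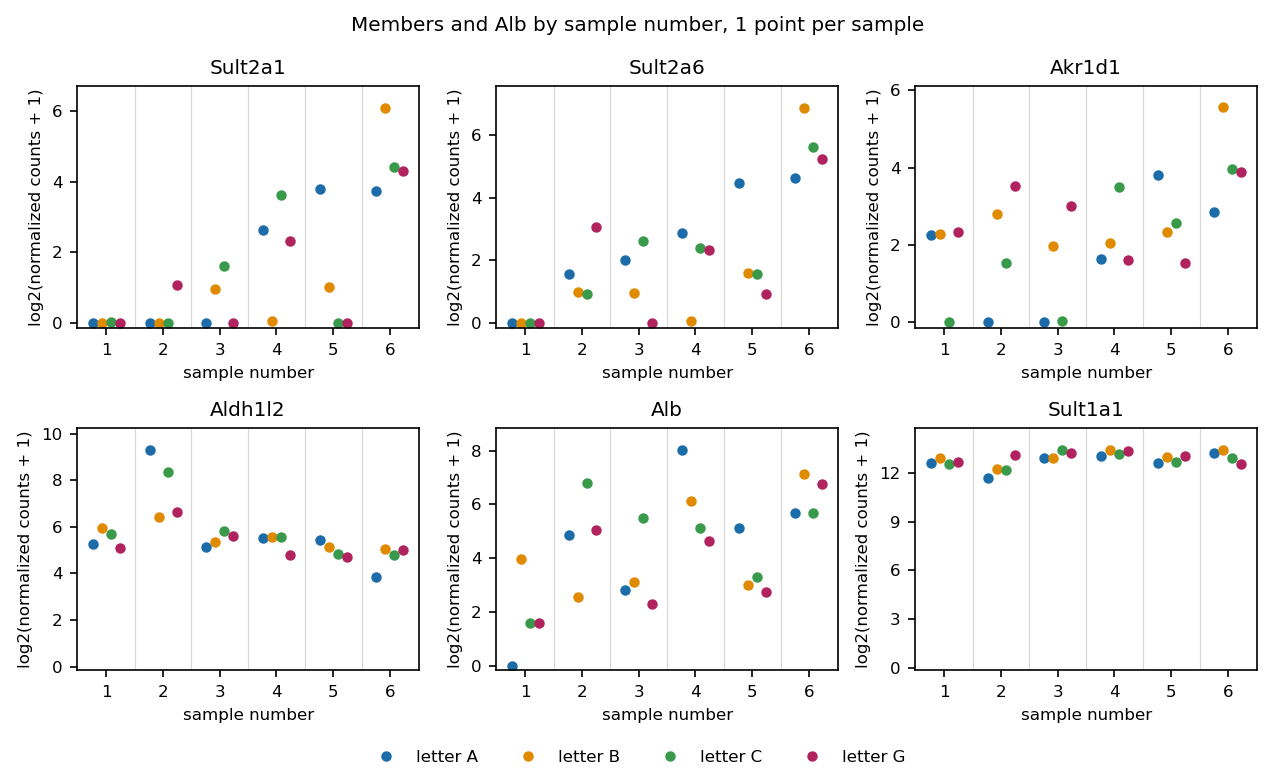
Log2(normalized counts + 1) (y axes) of Sult2a1, Sult2a6, Akr1d1, Aldh1l2, Alb and Sult1a1 by sample number (x axes), 1 point per sample, coloured by letter. Sult2a6 is highest in the 4 samples numbered 6, while Alb is highest in A4.

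Of the Ugt genes, 1 of 12 was called over the numbers. The 6 Ugt rows that average under 10 had 0 calls, in a class where 3.59% of all genes were called, and the other 6 had 1, beside 42.6% of genes that average at least 10. Ugt1a9 was 15.4, 1.91, 13.1 and 12.1 in number 1 and 23.1, 38.3, 36.6 and 26.0 in number 3, with overlap between other numbers (limma adjusted p = 0.0383). It was called in 14 of the 24 fits without 1 sample and not after quantile normalization or with a pseudocount of 0.1 (at most 0.0625). Ugt1a7c was not called (limma adjusted p = 0.119), though it was without B2 (0.0436). Ugt1a8 and Ugt1a6b had adjusted p-values of 0.314 and 0.437.

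The aldehyde dehydrogenases oxidise aldehydes to acids. Aldh1a1, which makes retinoic acid and clears lipid aldehydes, was 19494, 21005, 20250.3 and 20882 in number 1 and 11989, 12769, 16193 and 11652 in number 2. It was 13878, 14895, 13138 and 16555 in number 3, and between 16174 and 23123 in numbers 4 to 6. The log2 difference was -0.48 ± 0.07 for number 2 (limma adjusted p = 8.72e-05; at most 0.00134 in the 24 fits without 1 sample) and 0.30 ± 0.07 for number 1. Aldh1a7, a close copy of Aldh1a1, took the same course, from 3714 to 5235 in number 2 (log2 difference -0.46) and 6324 to 6570 in number 1 (0.27). Their reads may not be separable. Aldh2, the mitochondrial acetaldehyde dehydrogenase with the highest mean value of the family, was 29298, 31472, 33091 and 31033 in number 2 and 32967 to 39923 elsewhere, a log2 difference of -0.20 ± 0.04 (limma adjusted p = 0.00107). Aldh16a1 was 4373, 3582, 3810 and 3338 in number 2 (log2 difference 0.13, limma adjusted p = 0.0250), and this call was lost without A2 or C2 (at most 0.271), and after scaling to the 75th percentile, with array quality weights or without the letter in the model (at most 0.117). Aldh8a1 was not called over the numbers (limma adjusted p = 0.0968).

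Further Aldh members were chosen after their values were seen, for the size of their change. Aldh1l2 was 633 in A2, 83.5 in B2, 329 in C2 and 99.2 in G2, and 13.5 to 60.7 in the other samples, so all 4 samples numbered 2 were above the rest. Its log2 difference was 2.48 ± 0.34 (limma adjusted p = 3.70e-05; at most 0.000428 in the 24 fits without 1 sample). Aldh18a1, which starts proline synthesis, was 2745, 1725, 1825 and 1570 in number 2 (log2 difference 0.48) and 986, 982, 1203 and 1310.0 in number 6 (-0.47). Aldh4a1, which ends proline breakdown, was 1703, 1425, 1499 and 1224 in number 3 (log2 difference 0.55 ± 0.09, limma adjusted p = 0.00148). Aldh1l1, the cytosolic partner of Aldh1l2, was 201 in A6, 294 in B6 and 240.3 in C6 but 551 in G6, and 412 to 732 in the other samples (log2 difference of number 6 -0.87 ± 0.17, limma adjusted p = 0.00307). Of the 7 members lower in number 6, the number 6 sample was the lowest of its letter in 7 for A, 7 for B, 6 for C and 1 for G. This difference between letters was not tested.

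The aldo-keto reductases reduce carbonyls with NADPH. Akr1c14, a 3-alpha-hydroxysteroid dehydrogenase that also oxidises dihydrodiols of polycyclic aromatic hydrocarbons, was 3267, 3406, 3296 and 2565 in number 1, 1962, 1769, 1610.2 and 2177 in number 3, and 2225, 1925, 2151 and 2033 in number 4. In numbers 5 and 6 it lay between 2586 and 3164. The log2 difference was 0.41 ± 0.08 for number 1 (limma adjusted p = 0.00154) and -0.47 ± 0.08 for number 3 (0.00116). Both calls were made in all 24 fits without 1 sample. Akr1c18, a progesterone-inactivating 20-alpha-hydroxysteroid dehydrogenase, was 55.1, 40.2, 36.7 and 54.9 in number 3 (log2 difference -0.68 ± 0.17, limma adjusted p = 0.0239), and the call was lost without B3 or C3 (at most 0.201). Akr1b8 was called over the numbers (limma adjusted p = 0.0297) but not without A3, B3, B4, C2 or C3 (at most 0.0800), without both A4 and B4 (0.0581) or without the letter in the model (0.162). Akr1b10 (0.310) and Akr1a1 (0.366) were not called.

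The epoxide hydrolases turn epoxides into diols. Ephx1, the microsomal enzyme that acts on polycyclic aromatic epoxides, was 4093, 5545, 6349 and 6988 in number 2 and 9270.3, 10796, 8683 and 8130.1 in number 4. Samples numbered 4 were at or near the top, with B5 (8940) and G5 (9387) among them. The log2 difference was -0.41 ± 0.10 for number 2 (limma adjusted p = 0.00468), lost without A2 (0.0804), and 0.44 ± 0.10 for number 4 (0.0130), lost without A4 or B4 (at most 0.123). Ephx2, the soluble enzyme of fatty acid epoxides, was 920.1, 939.8, 920 and 1056 in number 2 (log2 difference -0.23, limma adjusted p = 0.0343), lost without A2, B2 or C2 (at most 0.143) and without A4 and B4 (0.0608). Ephx4 was 67.0, 44.7, 102 and 89.2 in number 2 (log2 difference -0.68, lost without B2 at 0.111) and 70.3, 68.6, 80.6 and 83.5 in number 1 (-0.60, lost without A1, B1, C1 or G1 at up to 0.142, and after quantile normalization or without A4 and B4 at up to 0.0798). In number 6 it was 111, 213, 150.1 and 168 (log2 difference 0.65, limma adjusted p = 0.0304), lost without A6, B6 or C6 (at most 0.236).

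Samples of a number were not alike. Of the 23 members lower in number 2, the sample numbered 2 was the lowest of its letter in 20 for A, 19 for B, 12 for C and 14 for G. C2 was less extreme in Gstp1, Gstm7 and Aldh1a1 above, and G2 in Sult1a1 and Ephx1.

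Markers of lung cell types moved with the numbers too, and in bulk tissue fewer cells of a type and less RNA per cell cannot be told apart. Of all genes, 10.3% were called lower and 11.5% higher in number 2, 6.25% lower in number 1 and 2.72% higher in number 4. Summed club cell markers were 320905 to 440291 in number 2 and 560988 to 672836 in number 4, with 3 of 6 genes lower in number 2 and 2 of 6 higher in number 4. Most of these sums was 1 gene, Scgb1a1, at 303417 to 432920 in number 2 and 552664 to 652541 in number 4. In A4 another 70692 came from Bpifa1. The club cell sums therefore describe mainly Scgb1a1. Ciliated cell markers summed to 39255 to 51128 in number 2, with 2 of 7 lower. Most of this sum was 1 gene, Tppp3, at 30407, 34806, 37161 and 37056 in A2, B2, C2 and G2, so it describes mainly Tppp3. Endothelial markers were lower in number 2 in 6 of 6. Alveolar type 1 markers were lower in 4 of 6 and alveolar type 2 markers higher in 4 of 8. Neutrophil markers summed to 4493 to 28090 in number 2, with 1 of 7 higher, and 3 of 7 were lower in number 1. In number 3 macrophage markers summed to 29437 to 38550, beside 13634 to 24377 elsewhere. Most of this sum was 1 gene, Mrc1, at 33463, 24195, 32584 and 26018 in A3, B3, C3 and G3. Marco was at most 3.92 in these samples, and only 3 of the 5 macrophage genes in the table averaged at least 10. The sum therefore describes mainly Mrc1. In number 4, 4 of 8 skeletal muscle and 3 of 10 oesophageal genes were higher. Skeletal muscle markers were highest in A4 and B4. Oesophageal markers summed to 19194 in A4, but to at most 2422 in the samples of B. Without A4 and B4, 0 members were called in number 4 (9 at an unadjusted p under 0.05), with 2 samples of that number left. Red blood cell markers, given with Gstp1 above, were lower in 5 of 6 genes in number 1 and in number 2, and higher in 5 of 6 in number 4. The part of cell content in the members' values was not tested.

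Of the 78 pathway genes, which work beside the members, 38 (48.7%) were called over the numbers, beside 31.5% of all genes. At a mean of at least 10 it was 38 of 75 (50.7%), beside 42.6%. By list, the calls were 4 of 7 AhR targets, 6 of 13 NRF2 targets, 7 of 14 genes of glutathione synthesis and recycling, 5 of 6 microsomal glutathione transferases, 4 of 9 genes of cosubstrate supply, 4 of 8 other conjugating enzymes, 6 of 16 other carbonyl oxidoreductases and 5 of 10 export pumps, with genes in more than one list. In number 2, 13 of the 78 were higher (all genes: 11.5%) and 17 lower (10.3%), with a median log2 difference of 0.00, beside -0.17 for the members. AhR targets there were lower in 4 of 7 and higher in 0, and in number 4 they were higher in 2 of 7 (all genes: 2.72%). Glutathione synthesis genes were higher in 4 of 14 and lower in 3 in number 2, and export pumps were lower in 4 of 10 and higher in 1.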

How the data were processed

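Per the labels' protocols, messenger RNA of 24 rat lung samples was sequenced. The authors deposited 1 table of normalized read counts, a signal that is never negative, for 30667 genes. Their normalization is not given in the sources used here. The submitters' processing notes name STAR and the mouse build GRCm38, with no role or order. Per the labels, the title gives each sample's letter and number.

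Differences were tested with limma 3.58.1 in R 4.3.3, with a variance trend, on log2(value + 1) for genes whose mean reached 0.5, which all 30667 did. Letters were compared in a model of 4 letter means (F test with 3 degrees of freedom and 6 pairs). Numbers were compared in a model of letter plus number (F test with 5 degrees of freedom, and each number against the mean of the other 5). Two-sided p-values were adjusted by Benjamini-Hochberg over all genes (threshold 0.05). The code was tested on simulated data. Where a call is said to be lost or kept, the model was refitted without the named samples.

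Named members were, per family, the 2 smallest letter p-values and the 2 smallest number p-values among members with a mean of at least 10, and the highest mean, 26 genes in all. The members, gene lists and marker lists were chosen with earlier results of these data known. Pathway genes are given by counts, apart from Ahrr. Siglec5 and Hnmt are not in the table and the other listed genes are.

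Equal numbers were checked as pairs by correlating deviations from the letter means across the 21922 genes that average at least 10. All 6 correlations exceeded 0.1 in B against A (0.17 to 0.59) and in C against B (0.13 to 0.60). In the other 4 comparisons at least 1 did not. The letter results above come from fits without the number in every pair of letters, and the fit with the number as a block is an alternative only. Equal numbers could be read as pairs in B against A and C against B only, from the data and not from a label. The number against the other numbers is therefore described without a meaning. Promoters came from RefSeq (GRCr8), matched by symbol, and motifs were searched on both strands.

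Alternatives were a pseudocount of 0.1, no filter or a mean of at least 10, quantile and 75th percentile scaling, array quality weights, the number as a block, only the samples of a pair, no letter term, no A4 and B4, no samples numbered 2, and each sample left out in turn.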

Additional observations from a re-analysis of the deposited data

Results flagged for a closer look

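Within each letter, the highest and lowest of the 6 samples of the 26 named members were compared with the nearest other sample. Of 104 such groups, 7 had a gap above Dixon's 95% critical value for 6 samples, and chance alone gives about 5.2. Of these, 3 were Sult2a6 in samples numbered 6: 115 in B6 (next highest in B 2.04), 47.5 in C6 (5.13) and 36.3 in G6 (7.35). Sult2a6 was named for its number p-value, at a mean of 11.8 that falls to 3.04 without the samples numbered 6, so these 3 gaps restate how it was chosen. Another 3 were in A2: Sult6b1 at 22.7 (next 12.03), Aldh16a1 at 4373 (3746) and Ugt1a7c at 270.0 (157). The last was Sult4a1 in C1, at 35.2 (18.3).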

How the results depend on the processing

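In the 7 letter comparisons, 0 members were called under every alternative run, and leaving out each sample in turn gave 0 to 0. With the number as a replicate block the count stayed 0, in the 2 comparisons where the numbers pair and in the others. In G against A the replicate block called 391 genes (1.27%) in all, beside 2 without it, and Akr1b8 had an adjusted p of 0.0669. The count over the 6 numbers was 46, and 34 to 49 under the alternatives, 34 of them without the samples numbered 2.

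For single numbers, array quality weights gave 21 members in number 1 (11 without them) and 12 in number 5 (7). Without A4 and B4, number 4 had 0 (8), with 2 samples left. Leaving out each sample gave 40 to 48 over the numbers, 4 to 15 for number 1, 18 to 30 for 2, 4 to 11 for 3, 1 to 11 for 4, 0 to 10 for 5 and 9 to 21 for 6. The cause of these shifts was not tested. Without the samples numbered 2, Sult5a1 (adjusted p 0.109) and Ugt1a9 (0.0752) were no longer called over the numbers. Depth before normalization is unknown, so the counting error of low rows such as Sult2a3 cannot be given here.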
